A study of Oncorhynchus mykiss with 16 samples.

Results

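The array of this study carried 3 probes named for genes of the autophagy machinery, LC3B, atg12l and atg4b, out of 60195 probes in all. The genes were picked with earlier results of these data known, and their probes were then found by name in the scanner files. Each name belonged to 1 probe, and each probe was spotted once per array. The names are those of the array design. Which trout gene copy each of the 3 probes detects could not be worked out and was not tested. Rainbow trout (Oncorhynchus mykiss) preadipocytes were isolated from visceral fat pooled from several fish, and 4 independent cultures, numbered 4, 8, 9 and 10 in the sample labels, were sampled at days 3, 8, 15 and 21. One flask per culture and day gave RNA for 1 one-colour Agilent array, so there were 16 arrays and n = 4 cultures per day. All cultures received the same treatment. The cells grew in serum-containing growth medium until confluence at day 8, and from then on the medium also held insulin, IBMX, dexamethasone and a lipid mixture, which induce differentiation. The submitters name the cells mesenchymal stem cells at day 3, proliferated cells at day 8, committed preadipocytes at day 15 and mature adipocytes at day 21. All arrays after day 8 come from differentiation medium, so time in culture and the change of medium cannot be told apart.

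In macroautophagy a double membrane grows around a portion of cytoplasm, closes to an autophagosome and delivers its content to the lysosome. A pair of ubiquitin-like proteins drives the growth of this membrane, one of which is Atg12, which is coupled to Atg5, and the other a member of the Atg8 family such as LC3B, which is coupled to the lipid phosphatidylethanolamine and stays on the membrane. Proteases of the Atg4 family trim the precursor of LC3 before this coupling and remove the lipid from it afterwards. In mammals, autophagy is known to take part in the remodelling of the cytoplasm while a preadipocyte becomes an adipocyte. The arrays measured transcripts, which are not a measure of the flow of material through this pathway.

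The signals of the LC3B and atg12l probes were higher at day 21 than at day 3 in all 4 cultures, as were those of 23.2% of the tested probes, while that of the atg4b probe was higher in cultures 4 and 9 and lower in cultures 8 and 10. LC3B was 2.24-fold higher at day 21 than at day 3 (log2 difference 1.16 with an SE of 0.26), and atg12l was 1.66-fold higher (0.73 with an SE of 0.22). The log2 difference of atg4b over the same interval was -0.05 with an SE of 0.40. All values below are log2 of the background-corrected signal relative to the 75th percentile of the same array, so that 0 is that percentile and negative values lie below it. A comparison passed when its Benjamini-Hochberg adjusted p over the 42541 tested probes was below 0.02 in limma.

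LC3B, named for the Atg8-type protein of the autophagosome membrane, gave a signal of 1469 to 7167 scanner units that was well above background on 16 of 16 arrays. At day 3 its log2 values were 1.59 in culture 4, 1.57 in culture 8, 2.02 in culture 9 and 1.26 in culture 10. At day 8 they were 1.87, 2.01, 2.19 and 2.05 in the same order of cultures. Every culture thus had a higher value at day 8 than at day 3, by 0.17 to 0.78, as 17.5% of the tested probes did. At day 15 the values were 1.60, 2.67, 2.95 and 2.44, and at day 21 they were 2.56, 2.88, 3.15 and 2.50. Culture 9 had the highest value on each of the 4 days, and in every culture day 3 was the lowest day and day 21 the highest. The share of tested probes with these orders was not counted. Culture 4 departed from the order of the other cultures at day 15, where its value was 0.27 below its own day 8 value, and then gained 0.96 by day 21. From day 15 to day 21 the other cultures gained 0.06 to 0.21, and a gain in all 4 cultures over this step was seen in 8.03% of the tested probes.

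**Figure D1:**
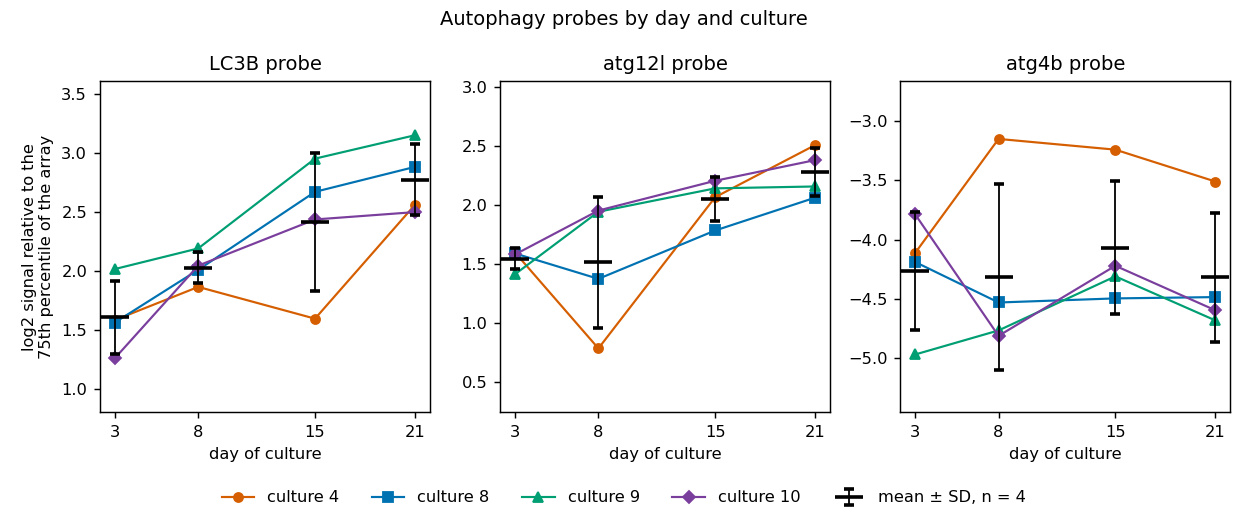
Log2 signal relative to the 75th percentile of the array (vertical axes, each spanning the same range) against day of culture for the 3 probes. Coloured lines are the 4 cultures and black bars the mean ± SD (n = 4). The LC3B and atg12l lines end at their highest value on day 21 in all 4 cultures, whereas the atg4b lines separate culture 4 from the others from day 8 onwards.

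The day means of LC3B were 1.61 ± 0.31, 2.03 ± 0.13, 2.41 ± 0.58 and 2.77 ± 0.30 at days 3, 8, 15 and 21 (SD, n = 4 each), so the mean was higher at each step. Such a stepwise rise of the day means was seen in 11.4% of all tested probes. The step of 0.42 between day 8 and day 3 had an SE of 0.26, and neither it nor the later steps of 0.38 and 0.36 passed alone (limma adjusted p = 0.286, 0.439 and 1.0). Of all tested probes, 5.15%, 1.17% and 0% passed these steps as higher. The whole course passed, with an adjusted p of 0.00284 in limma and a 95% interval of 0.62 to 1.71. The arrays of day 21 (2.50 to 3.15) lay entirely above those of day 3 (1.26 to 2.02), as they did for 14.7% of the tested probes, and above those of day 8 (1.87 to 2.19), as for 7.87%. The gain from day 3 to day 21 was of similar size in each culture, at 0.98 in culture 4, 1.32 in culture 8, 1.13 in culture 9 and 1.23 in culture 10 (SD 0.15). A larger difference than that of LC3B was found in 7.83% of the tested probes.

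Comparing the mean of days 15 and 21, in differentiation medium, with the mean of days 3 and 8, in growth medium, asks how expression differed between the phases of the culture. LC3B was higher in the later phase by 0.77 (SE 0.18, 95% interval 0.39 to 1.16, limma adjusted p = 0.00423). The difference was 0.35 in culture 4, 0.99 in culture 8, 0.94 in culture 9 and 0.81 in culture 10, and 26.9% of the tested probes were likewise higher in all 4 cultures. The arrays of the phases overlapped, since the day 15 value of culture 4 (1.60) was below the highest array of the earlier phase (2.19), while the other 7 late arrays lay above it. With culture as a block, which uses the fact that the 4 arrays of one culture share a pool of cells, LC3B also passed for day 15 against day 3 (difference 0.81, limma adjusted p = 0.00468, against 0.0272 without the block) and for day 21 against day 8 (0.74, 0.0142 against 0.0705). With the block 15.1% and 7.25% of the tested probes passed these as higher, and without it 10.4% and 3.63%. Leaving out culture 8 raised the adjusted p of day 21 against day 3 to 0.0398 in limma, and leaving out culture 8, 9 or 10 raised that of the phases to 0.0608, 0.0227 or 0.0237, with differences of 0.70, 0.72 and 0.76. With the block, day 21 against day 3 and the phases passed without any 1 of the cultures. The comparisons gained with the block passed without culture 4 but not without culture 8, 9 or 10, with limma adjusted p of 0.0604, 0.0425 and 0.0310 for day 15 against day 3 and 0.0999, 0.0987 and 0.0230 for day 21 against day 8.

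atg12l, named for the ubiquitin-like protein that is coupled to Atg5, gave a signal of 1135 to 3603 units and was also well above background on 16 of 16 arrays. At day 3 its log2 values were 1.60 in culture 4, 1.59 in culture 8, 1.41 in culture 9 and 1.58 in culture 10, a narrow range. At day 8 they were 0.79, 1.38, 1.94 and 1.95 in the same order. The cultures thus went different ways in the growth phase, with cultures 4 and 8 lower at day 8 by 0.81 and 0.21 and cultures 9 and 10 higher by 0.53 and 0.37. At day 15 the values came together again at 2.07, 1.78, 2.14 and 2.20, and at day 21 they were 2.51, 2.06, 2.16 and 2.38. All 4 cultures were higher at day 15 than at day 8, as for 21.4% of the tested probes, and highest at day 21. The share of tested probes with day 21 highest in every culture was not counted. The difference of 0.53 between day 15 and day 8 did not pass (limma adjusted p = 0.192).

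The day means of atg12l were 1.55 ± 0.09, 1.51 ± 0.55, 2.05 ± 0.19 and 2.28 ± 0.20 at days 3, 8, 15 and 21 (SD, n = 4 each). Between day 8 and day 3 the difference of -0.03 had a 95% interval of -0.51 to 0.44, which leaves room for a change of either sign. Between the phases atg12l was higher in the later one by 0.63 (SE 0.16, 95% interval 0.30 to 0.97, limma adjusted p = 0.00649), a 1.55-fold difference. Its size was 1.09 in culture 4, 0.44 in culture 8, 0.47 in culture 9 and 0.52 in culture 10. All arrays of day 21 (2.06 to 2.51) and of day 15 (1.78 to 2.20) lay above all arrays of day 3 (1.41 to 1.60), the latest day as for 14.7% and day 15 as for 15.1% of the tested probes. Even so, the difference of 0.50 between day 15 and day 3 did not pass (limma adjusted p = 0.104, and 0.0819 with culture as a block). The comparison of day 21 with day 3 stood just outside the threshold, with an adjusted p of 0.0201 in limma. With culture as a block it passed (limma adjusted p = 0.0155), where 16.3% of the tested probes passed as higher. The blocked comparison did not pass without culture 8, 9 or 10 (limma adjusted p = 0.0543, 0.0544 and 0.0522). The arrays of day 21 also lay above all those of day 8 (0.79 to 1.95), as for 7.87% of the tested probes, but the difference of 0.76 did not pass (limma adjusted p = 0.0375). It was 1.72 in culture 4 and 0.21 to 0.69 in the others, and without culture 4 the difference was 0.44 (limma adjusted p = 0.206). The difference between the phases was 0.48 without culture 4 (adjusted p = 0.0285 in limma), and it also missed the threshold without culture 8 (0.0341) and without culture 9 (0.0307).

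**Figure D2:**
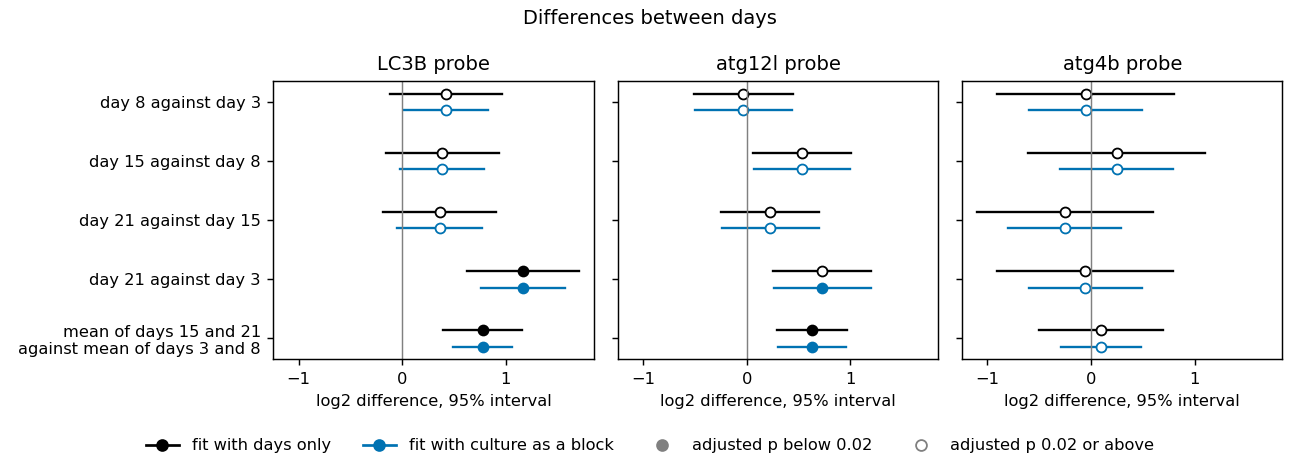
Log2 differences (horizontal axes) between days and between the phases for the 3 probes, with 95% intervals from limma. Black marks are the fit with days only, blue marks the fit with culture as a block, and filled marks have an adjusted p below 0.02. LC3B and atg12l lie to the right of 0 for day 21 against day 3 (1.16 and 0.73) and between the phases (0.77 and 0.63), and the intervals of atg4b all include 0.

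atg4b, named for the protease that trims LC3 and removes it from the membrane, gave a dim signal of 22.5 to 74.1 units. It was well above background on 15 of 16 arrays, the exception being culture 10 at day 21, and on its arrays it stood at 1.13 to 6.78 times the lowest signal that was well above background. The error that the scanning software assigns to its spot was 10.6% to 23.5% of the signal, whereas for LC3B and atg12l it stayed at 10.0%. The measurement of atg4b is thus less precise than those of the other members on every array.

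**Figure D3:**
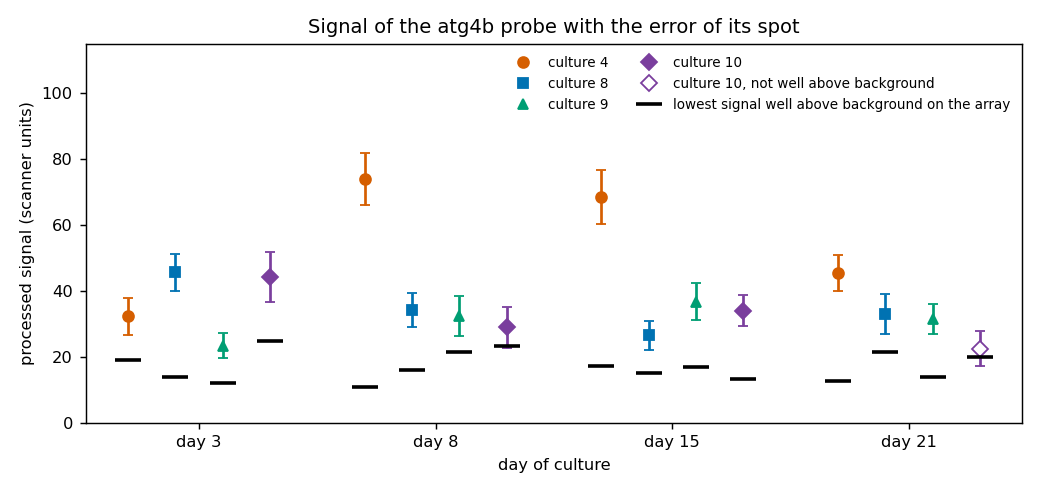
Processed signal of the atg4b probe in scanner units (vertical axis) on each array, grouped by day, with the error that the scanning software gives the spot as bars. Black dashes mark the lowest signal well above background on that array. The signals lie between 22.5 and 74.1 units, and the open symbol is the 1 array, culture 10 at day 21, on which the spot was not well above background.

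At day 3 the log2 values of atg4b were -4.11 in culture 4, -4.19 in culture 8, -4.97 in culture 9 and -3.79 in culture 10. At day 8 they were -3.15, -4.53, -4.77 and -4.81 in the same order. Culture 10 thus had the highest value at day 3 and the lowest at day 8, and culture 4 the highest from day 8 on. At day 15 the values were -3.24, -4.50, -4.31 and -4.22, and at day 21 they were -3.51, -4.49, -4.68 and -4.60. The arrays of all days overlapped. The day means were -4.26 ± 0.50, -4.32 ± 0.79, -4.07 ± 0.56 and -4.32 ± 0.55 at days 3, 8, 15 and 21 (SD, n = 4 each).

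None of the comparisons of atg4b passed. Day 21 differed from day 3 by -0.05 with a 95% interval of -0.91 to 0.80, and the later phase from the earlier by 0.10 with an interval of -0.50 to 0.70 (limma adjusted p = 0.931 and 0.818). With culture as a block, which takes out the large part of the spread that lay between cultures, the intervals were -0.60 to 0.49 and -0.29 to 0.48. The intervals of the fit with days only include rises as large as those fitted for atg12l (0.73 and 0.63), and those with the block do not. Without culture 8 the blocked intervals reached 0.74 and 0.68. By culture, the difference between day 21 and day 3 was 0.60 in culture 4, -0.30 in culture 8, 0.29 in culture 9 and -0.81 in culture 10.

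For day 21 against day 3, 1 of the 3 probes (LC3B) passed as higher, where 11.9% of all tested probes did. With culture as a block atg12l passed as well, where 16.3% did, but not without culture 8, 9 or 10. Between the phases LC3B and atg12l, 2 of the 3, passed as higher, where 12.5% did, and 17.0% with the block. Over the 4 days together, limma's F-test passed LC3B (adjusted p = 0.0118, but 0.141 without culture 8, 0.0481 without culture 9 and 0.0651 without culture 10), while atg12l gave 0.0294 and atg4b 0.936, and 24.3% of the tested probes passed. The study also asked for a ratio above 3 between days. The largest ratio between day means was 2.24 for LC3B, 1.70 for atg12l and 1.19 for atg4b, so none of the 3 met that requirement, which 8.84% of the tested probes met together with the threshold on p. Between day 21 and day 15 none of the 3 passed in limma, none had an unadjusted p below 0.05, and over all tested probes 0 passed while 1476 had an unadjusted p below 0.05. With 3 probes these counts describe the probes and no more.

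**Figure D4:**
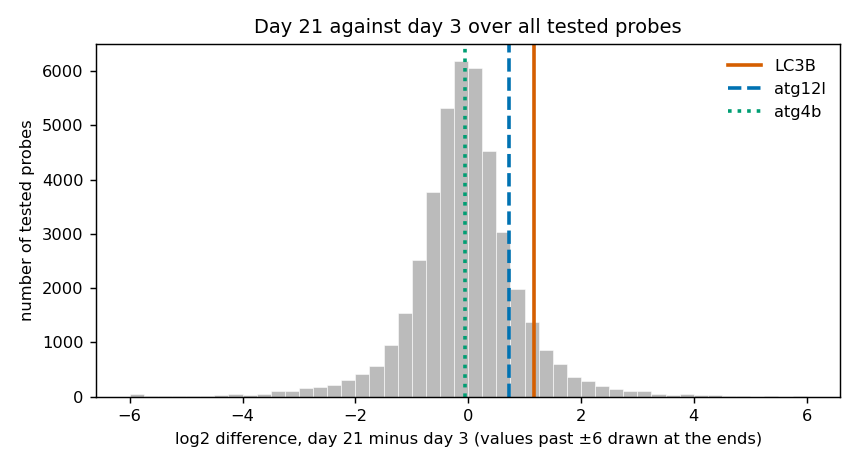
Number of tested probes (vertical axis) by log2 difference of day 21 minus day 3 (horizontal axis), with the 3 autophagy probes as vertical lines. LC3B (1.16) and atg12l (0.73) lie in the right flank of the distribution, with 7.83% and 15.2% of the probes further right, and atg4b (-0.05) lies near its median of -0.05.

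The probes differed in how their spread was divided. Day accounted for 64.8% of the sum of squares of LC3B over the 16 arrays, for 59.2% of that of atg12l and for 3.66% of that of atg4b. Culture accounted for 22.0% in LC3B, 9.73% in atg12l and 68.0% in atg4b. For atg4b the mean over the 4 days was -3.50 in culture 4, against -4.43 in culture 8, -4.68 in culture 9 and -4.35 in culture 10, and culture 4 was also the culture with the lowest mean of LC3B (1.90, against 2.06 to 2.58 in the others). Across the 16 arrays, which share 4 cultures and 4 days, Pearson's r was 0.56 between LC3B and atg12l, -0.39 between LC3B and atg4b and -0.18 between atg12l and atg4b. After each day's mean was subtracted, the values became -0.03, -0.70 and -0.35, so the likeness of LC3B and atg12l lay in their day means. Arrays high in LC3B for their day tended to be low in atg4b. These arrays repeat only 4 cultures, of which culture 4 had the lowest mean of LC3B and the highest of the dim atg4b probe.

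Whether LC3B gained more than atg12l was examined within arrays, where the scaling cancels. From day 3 to day 21 LC3B gained more in 4 of 4 cultures, by 0.07 in culture 4, 0.84 in culture 8, 0.39 in culture 9 and 0.44 in culture 10 (mean 0.43 ± 0.32, SD). An exact two-sided permutation test that exchanges signs within cultures gave p = 0.125, the smallest that 4 cultures allow. Against atg4b, LC3B gained 1.22 ± 0.75 more and atg12l 0.78 ± 0.58 more (SD, n = 4 each), again in 4 of 4 cultures and with the same smallest exact permutation p of 0.125. Culture 10 had the largest of these differences (2.05 and 1.61), and its atg4b spot at day 21 was not well above background. The dim atg4b probe also depends on the background correction, which does not cancel within arrays. With another correction (normexp) its difference of -0.05 became 0.27. These 3 pairs were the comparisons made for day 21 against day 3, and no p below 0.05 can be reached. Between the phases LC3B exceeded atg12l in 3 of 4 cultures, with -0.74 in culture 4 and 0.29 to 0.55 in the others.

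**Figure D5:**
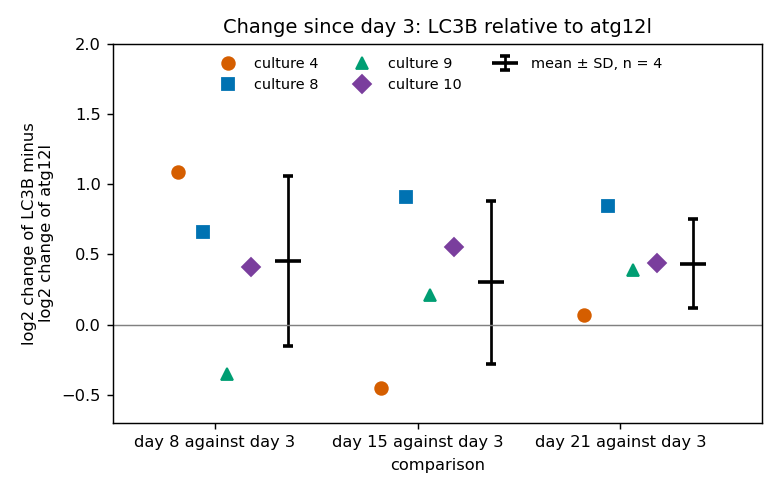
Log2 change of LC3B since day 3 minus that of atg12l (vertical axis) at days 8, 15 and 21, with a symbol per culture and the mean ± SD (n = 4) in black. At day 21 all 4 cultures lie above 0, between 0.07 and 0.84, while at day 8 culture 9 and at day 15 culture 4 lie below it.

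A list of 67 names held autophagy and lysosome genes and also some ubiquitin ligase genes. Of these, only the probes named cathepsine and fbx32 could be found by name beside the 3 probes. The names of most other probes are identifiers that no table used here translates into genes. From the same arrays, the paper reports Atg5 among the genes raised in the proliferation phase. It places Hsc70 and LAMP2A, which act in chaperone-mediated autophagy, among those raised in the differentiation phase. No probe was found here under these names, so their values are not given. The cathepsine and fbx32 probes both passed as higher in the later phase, as 12.5% of all tested probes did. The cathepsine probe, named for a family of lysosomal proteases, had day means of 7.82, 7.87, 8.47 and 8.54 at days 3, 8, 15 and 21. It differed between the phases by 0.66 (SE 0.11, limma adjusted p = 0.000564), with a higher value in 4 of 4 cultures, as for 26.9% of the tested probes. Between day 8 and day 3 the cathepsine probe differed by 0.05 (SE 0.16). The mean of atg12l also differed little over this step, but its cultures went different ways. The fbx32 probe, named for a ubiquitin ligase component known from muscle wasting in mammals, had day means of -4.29, -4.52, -3.82 and -3.46 and a difference of 0.76 between the phases (SE 0.23, limma adjusted p = 0.0186), higher in 3 of 4 cultures. Like atg4b, the fbx32 probe was dim, and it was well above background on 15 of 16 arrays. Its adjusted p lay only just below the threshold of 0.02.

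The probes whose profile over the 16 arrays was most like that of a member are known by identifier only. For LC3B these were TC130242 (Pearson's r = 0.98) and BX862973.s.om.10 (0.96), for atg12l CB490089.s.om.10 (0.99) and TC122456 (0.93), and for atg4b CA346244.s.om.10 (0.90) and FZ8DYKY01CV8S2.s.om.10 (0.89). The arrays share 4 cultures and 4 days, so these are descriptions. TC130242 had day means of 1.22, 1.62, 2.06 and 2.39, a rise at each step as in LC3B, and CB490089.s.om.10 had 1.49, 1.42, 1.98 and 2.20, with day 8 as the lowest day as in atg12l. Among 44 other tested probes with readable names, LC3B was most like glucose transporter 1 (0.80), calpastatin (0.77) and fbx32 (0.76), and atg12l most like calpastatin (0.67), cathepsine (0.66) and phosphoenolpyruvate (0.65). For atg4b they were HPGPX1 (0.74), Glut2 (0.68) and carnitine (0.63).

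The labels of the cells could be checked by few probes. The probe named PPARg, for the regulator that defines adipocyte differentiation, stayed near background, with 0 of 16 arrays well above it. Whether this probe detects the trout transcript was not tested, so no conclusion about PPARg in these cells is drawn from it. By Western blot, the paper reports that PPARγ protein increased during the culture and stayed raised until its end. It also reports higher PEPCK, ACSL1 and PLIN2 late in the culture, by both qPCR and Western blot. The proliferation marker PCNA was reported as highest early, by the same methods. For the mature state of the cells the paper further cites GPDH, by microarray and qPCR. Probes named L-3-hydroxyacyl-CoA and phosphoenolpyruvate, words that begin the names of enzymes of fatty acid oxidation and of glyceroneogenesis, were higher in the later phase by 1.24 and 0.86 (limma adjusted p = 0.000476 and 0.00171). Probes for the muscle regulators myod1 and myogenine were well above background on all 16 arrays. myod1 varied widely between cultures, with an SD of 2.44 at day 8 and 1.47 at day 21 (n = 4 each). Its mean difference between the phases was -1.75 (SE 0.68, limma adjusted p = 0.0585, and 0.00971 with culture as a block), lower in 4 of 4 cultures. From day 3 to day 21, however, myod1 was higher in 1 culture. The shares of all tested probes likewise lower between the phases are not given here, so these values describe the probe only. myogenine differed by 0.29 (limma adjusted p = 0.0994). The part of such cells in the values of the autophagy probes was not tested, and in RNA from whole flasks fewer cells of a type and less RNA per cell cannot be told apart.

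The arrays lay on 2 slides, and slide 1 held 3 of the 4 arrays of day 3 and 1 of day 8, with the reverse on slide 2. The lone array was that of culture 4 in each case. Its day 8 array, on slide 1, held the lowest value of atg12l (0.79), so the slide 1 values of atg12l between the phases lean on it. With slide as a block, LC3B kept its difference of day 21 against day 3 (1.19, limma adjusted p = 0.00430). On slide 1 alone the difference was 1.24 for LC3B and 0.80 for atg12l, and on slide 2 alone 1.10 and 0.62. Between the phases the values were 0.96 for LC3B and 1.00 for atg12l on slide 1, and 0.65 and 0.48 on slide 2. None of these values on 8 arrays passed the threshold, with adjusted p from 0.0282 to 0.379 in limma. Over the 16 arrays, 65.5% to 80.5% of the spots were well above background and no spot was saturated, and the number of cultures limits the precision.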

How the data were processed

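RNA of 4 rainbow trout preadipocyte cultures at days 3, 8, 15 and 21 was hybridised to 16 one-colour arrays. The authors deposited spot intensities from Feature Extraction 10.7.3.1, which subtracts background, and a GeneSpring table of log2 values whose arrays share 1 median. After removal of control and outlier spots, each array's processed signals were divided by their 75th percentile (518 to 881 units) and put on the log2 scale. Of 60195 probes, 1050 lacked a value. At least 1 day had all 4 arrays well above background for 42541 of the rest, which were fitted with limma 3.58.1 (R 4.3.3), with 1 mean per day over 16 arrays and Benjamini-Hochberg adjustment over all tested probes. Python 3.11.15 with pandas 2.3.3 and matplotlib 3.10.9 gave the other values, and the fit was tested on simulated data.

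The 4 arrays of a culture share a pool of cells and are thereby paired. Deviations from the day means correlated by -0.14 to 0.70 over 24 same-culture pairs of arrays (mean 0.37, 20 of them over 0.1). The pairs not over 0.1 all held an array of day 3. They were day 3 of culture 10 with days 8, 15 and 21 (-0.14, 0.040 and 0.090) and day 3 of culture 9 with day 8 (0.099). Culture as a block, other background corrections, scalings and filters, the slide, the deposited table, the methods' ANOVA and leaving out each culture were alternatives.

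The probes and gene lists were chosen with earlier results of these data known. Named probes are the 3 members, the probes of the gene lists and, per member, the 2 most correlated tested probes and the 3 most correlated with a readable name. Names are those of the array design, and several break off.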

Additional observations from a re-analysis of the deposited data

Results flagged for a closer look

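Among 27 groups of 4 values of the 3 probes (4 cultures on a day, or 4 differences by culture), 5 held a value far from the rest (a gap to its neighbour above Dixon's 95% critical share of the range). Chance flags about 1 in 20 groups, and the groups overlap in the arrays they use. For 4 of the 5 the value was that of culture 4. LC3B gained 0.96 from day 15 to day 21 in culture 4, against 0.06 to 0.21 in the others, after its low value at day 15. atg12l differed between the phases by 1.09 in culture 4, against 0.44 to 0.52 in the others, and without that culture the difference was 0.48. atg4b gave -3.15 for culture 4 on day 8, where the other cultures lay between -4.81 and -4.53, and -3.51 on day 21, where they lay between -4.68 and -4.49. The fifth was atg12l at day 3, with 1.41 for culture 9 while the others lay between 1.58 and 1.60. The cause of these values was not tested.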

How the results depend on the processing

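The 3 probes gave 24 results (7 comparisons and the F-test each), with 478 values under alternatives, of which 402 kept direction and side of the threshold, 38 reversed, 27 lost and 11 gained the threshold. The differences of LC3B and atg12l between the phases and for day 21 against day 3 were positive under every alternative run. The cause of the changes below was not tested, except that fits on 1 slide have 8 arrays, with a lone array at day 8 (slide 1) or day 3 (slide 2) assumed to vary like the others.

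LC3B lost the threshold (limma adjusted p in brackets) for day 21 against day 3 on slide 1 at 1.24 (0.0300), on slide 2 at 1.10 (0.302) and with no scaling between arrays at 1.08 (0.0332). Between the phases it did so at 0.96 (0.0568), 0.65 (0.288) and 0.60 (0.0801), and atg12l at 1.00 (0.0282), 0.48 (0.238) and 0.46 (0.107). In the F-test LC3B lost it with ratios of 2.24 without a filter on dim probes (0.0208), 2.36 and 2.15 on the slides (0.0833 and 0.496) and 2.12 with no scaling (0.126). In the methods' ANOVA, with the same ratio of 2.24, LC3B had an unadjusted p of 0.00464, which meets the methods' threshold on p, and 0.0209 after Benjamini-Hochberg adjustment, which does not pass here. In the same ANOVA atg12l, with a ratio of 1.70, had an unadjusted p of 0.0109, which also meets the methods' threshold on p, and 0.0385 after adjustment. Neither ratio was above 3. Gains came with culture as a block for LC3B at days 15 against 3 (0.81) and 21 against 8 (0.74) and atg12l at day 21 against day 3 (0.73), with the deposited table for LC3B at day 15 against day 3 (0.90), atg12l at day 21 against day 3 (0.85) and atg12l in the F-test (ratio 1.81), and with a filter that keeps a probe only if all 16 arrays are well above background, which atg4b does not meet, for atg12l at day 21 against day 3 (0.73). The block changed no other call of the 3 probes.

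Without 1 culture the lowest and highest values of LC3B were 0.68 and 1.07 for day 15 against day 3, 1.11 and 1.23 for day 21 against day 3, 0.67 and 0.84 for day 21 against day 8, 0.70 and 0.91 between the phases and ratios of 2.16 and 2.34 in the F-test. LC3B passed for day 15 against day 3 without culture 4 (1.07, adjusted p = 0.00804 in limma). For atg12l they were -0.22 and 0.23 for day 8 against day 3, 0.67 and 0.82 for day 21 against day 3, 0.44 and 0.94 for day 21 against day 8, and 0.48 and 0.70 between the phases. For atg4b they were -0.39 and 0.27 (day 8 against day 3), -0.027 and 0.41 (15 against 3), -0.27 and 0.20 (21 against 3) and -0.077 and 0.12 (21 against 8). With the block and without 1 culture, LC3B between the phases had adjusted p from 0.000482 to 0.0143 and atg12l from 0.0144 to 0.0274 in limma, missing the threshold without culture 8, and the F-test of LC3B missed it without culture 8 (0.0337) or 9 (0.0244).

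Reversed values were small or came from 1 slide. atg12l for day 8 against day 3 became 0.16 on slide 2 and 0.18 with no scaling. atg4b became 0.019 (quantile), 0.075 (slide as a block), 1.17 (slide 1) and 0.16 (no scaling) for day 8 against day 3, -1.21 (slide 1) and -0.015 (no scaling) for day 15 against day 8, and 0.12 (normexp) and 0.26 (slide 1) for day 21 against day 15. It became -0.044 (slide 1) for day 15 against day 3, and 0.27 (normexp), 0.17 (quantile), 0.0084 (slide as a block), 0.22 (slide 1) and 0.068 (deposited table) for day 21 against day 3. For day 21 against day 8 it was 0.36 (normexp), 0.15 (quantile), 0.16 (slide 2) and 0.090 (deposited table), and between the phases -0.50 (slide 1) and -0.075 (no scaling).

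Without scaling, the median of all tested probes moved to 0.16 for day 8 against day 3 and -0.21 between the phases, and normexp moved that of day 21 against day 8 to 0.12. The F-test passed 10328 of all probes, against 15614 with the block, 3313 without culture 8, 3318 without culture 9, 1263 on slide 1 and 3 on slide 2. Between the phases 5313 passed as higher, against 2673 without culture 8, 2495 without culture 9, 583 and 122 on the slides and 2323 with no scaling, and for day 21 against day 3 it was 5047, against 2480, 2540, 2141, 70 and 2897. No scaling, the methods' ANOVA on the deposited table and the block without each culture were chosen after seeing the data. The signal of atg4b was close to background, with the largest spot errors of the 3 probes relative to the signal.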

Other observations

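Other probes for protein breakdown have readable names, and those below were picked with their values in view. calpain_1, named for a calcium-dependent protease, was higher at day 21 than at day 3 by 0.47 in 4 of 4 cultures (limma adjusted p = 0.0138). Of all tested probes, 11.9% passed this comparison as higher and 23.2% were higher in all 4 cultures. Between the phases calpain_1 differed by 0.27 (limma adjusted p = 0.0409), which did not pass. calpain_2 had its highest mean at day 8, where it differed from day 3 by 0.73 (limma adjusted p = 0.0530, and 0.0121 with culture as a block). With the block 8.95% of the tested probes passed this step as higher. Between the phases calpain_2 differed by -0.19. The proteasome probes PSMA1 and MSS1 differed between the phases by -0.24 and 0.10 (limma adjusted p = 0.0966 and 0.419), so neither of them passed.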
